A study of Mus musculus with 6 samples.

Results

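The mouse gene Hsph1 and the stretch past its end were profiled by ATAC-seq, which reads out accessible DNA by where a transposase can cut it and attach adapters, in leukemia cells from mice that received oil or tamoxifen. All peaks lying wholly within a 44-kb window of chromosome 5 around Hsph1 were taken, 56 of 175929 peaks in the deposited table. The window had been picked because its tag counts were known to differ between oil and tamoxifen, so that every oil against tamoxifen value within it is a description and carries no test. Hsph1 spans 19.5 kb of the minus strand at chr5:149616845-149636336 (mm10), and distances are given along the gene, from its start site toward and past its end.

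The cells were Usp18+/f UBCER-Cre AE9a leukemia cells grown in recipient mice. AE9a, a shortened form of the AML1/ETO fusion protein, drives acute myeloid leukemia in mice. In these cells 1 allele of Usp18 was floxed, and Cre was fused to an estrogen receptor domain under the ubiquitin C promoter, which is active in most tissues, so that tamoxifen switches Cre on. Mice received oil or tamoxifen after they became sick, and GFP+ Lin- c-Kit+ splenocytes were sorted 3 days after the first injection. Each group comprised 3 libraries, oil replicates 1, 2 and 4 and tamoxifen replicates 1, 3 and 4. Cre-free cells given tamoxifen were not among the groups, so an effect of tamoxifen itself and one of Usp18 loss cannot be told apart here. The study's methods describe separate mice within each treatment, with 1 sorted set also used for ATAC-seq, but give fewer biological replicates for ATAC-seq in another place, and the labels tie no library to a mouse. Every SD and n is therefore over libraries, and p-values measure the spread between libraries, which may be technical.

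Hsph1 encodes a member of the HSP110 family, large relatives of HSP70 that act as nucleotide exchange factors: they make HSP70 release ADP and its client protein, and they help it to dissolve protein aggregates. Its transcription is among those that heat shock factor 1 (HSF1) raises when unfolded proteins accumulate, through heat shock elements, which are alternating GAA and TTC units in a promoter. Highly transcribed heat shock genes are known to lose nucleosome order along their bodies and past their ends, which ATAC-seq can register as tags between promoter and downstream flank.

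The sequences that carry the profile are shown first, read from the RefSeq GRCm38.p6 assembly on the strand of Hsph1. A peak sat on the start site, and its part before the start site (chr5:149636337-149636503, minus strand) contained a pair of inverted heat shock units 33 bp before the start site and CCAAT boxes 116 and 47 bp before it. A run of 3 alternating units lay 36 to 48 bp past the start site (chr5:149636283-149636305), and is shown as a short site. The body peak with the highest mean tags lay in intron 11 (chr5:149624129-149624338) and is shown with the peak past the gene end that had the lowest log2 change (chr5:149608863-149609161, within an intron of Wdr95). Capitals mark each match to one of the motifs searched, on either strand. A heat shock pair was read as GAANNTTC and, in the other order, as TTCNNGAA. A heat shock run was 3 such alternating units with the same spacing, and therefore contained overlapping pairs. The Runx motif was searched as TGTGGT. For GATA factors the letters were AGATAA. For AP-1 they were TGANTCA. For PU.1 they were GAGGAAGT. The CCAAT box was searched by its name.
promoter peak before the start site: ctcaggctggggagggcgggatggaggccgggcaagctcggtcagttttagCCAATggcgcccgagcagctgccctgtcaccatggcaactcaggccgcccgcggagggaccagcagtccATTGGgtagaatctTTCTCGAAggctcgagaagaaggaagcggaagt
site past the start: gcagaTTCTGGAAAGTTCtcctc
intron 11 peak: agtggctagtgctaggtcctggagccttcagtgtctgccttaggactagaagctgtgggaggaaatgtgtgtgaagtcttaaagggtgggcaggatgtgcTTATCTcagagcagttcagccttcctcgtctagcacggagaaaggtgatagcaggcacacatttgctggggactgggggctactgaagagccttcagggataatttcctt
lowest peak past the gene end: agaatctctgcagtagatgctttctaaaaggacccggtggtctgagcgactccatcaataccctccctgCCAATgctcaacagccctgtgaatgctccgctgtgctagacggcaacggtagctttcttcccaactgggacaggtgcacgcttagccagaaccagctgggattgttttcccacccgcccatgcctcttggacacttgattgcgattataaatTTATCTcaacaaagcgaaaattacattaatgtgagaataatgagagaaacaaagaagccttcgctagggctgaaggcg

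The heat shock pair occurred in 12 of the 56 window peaks (21.4%), against 11.9% of 175738 peaks genome wide with a sequence, and 4 of the 31 window peaks called lower after tamoxifen held it. A run of 3 units occurred in none (0) of the window peaks and in 0.457% of peaks genome wide, since the run past the start site crossed the edge of its peak. Promoters of the reference table were taken from 250 bp before to 50 bp past each start site. The run of 3 units lay in a promoter of Hsph1 and of 4 of 30 chaperone genes listed there (Chordc1, Dnajb6, Hspd1 and Hspe1). Of all 27025 genes there, 179 (0.662%) had it. A GATA match lay in 23.2% of window peaks and 19.1% of all peaks, and a Runx match in 23.2% and 24.2%. Median GC content was 47.3% over the window peaks and 50.2% over all peaks. These matches describe letters in the sequence and no binding was measured.

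Libraries held 57.4 to 74.7 M tags (1 M is 1000000 tags), of which 28.2% to 30.5% fell in peaks. Tamoxifen replicate 4 stood apart: over all peaks its mean Pearson r was 0.963 with its own group and 0.974 with the oil libraries, whereas the other libraries gave 0.971 to 0.983 with their own group. Counts of called peaks are therefore given with and without it. Kit, the receptor used for the sort, had 738 to 855 normalized tags at the peak nearest its start site across the 6 libraries, and Spi1 and Runx1 had 285 to 334 and 336 to 390. Of the markers of other cells, Cd3e, a T cell gene, held 23.2 to 62.8 tags, Itgam, a gene of mature myeloid cells, held 27.5 to 59.6 tags, and no peak lay within 3000 bp of the start site of Ly6g. Mpo, a myeloid gene, held 28.2 to 50.1 tags. At the floxed gene itself, summed tags of 9 Usp18 peaks ran from 822 to 860 after oil and from 829 to 880 after tamoxifen, and none (0) of them had an adjusted p under 0.05 (DESeq2, smallest adjusted p 0.93), and whether a peak covers the deleted part was not tested.

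At Hsph1 the tags fell into 2 patterns, a promoter at nearly equal tags in all libraries and a body and downstream stretch with fewer tags in each tamoxifen library. Of the 56 window peaks, 31 were called lower after tamoxifen (DESeq2 fold change over 2 and adjusted p under 0.05 across all peaks) and none (0) was called higher, where genome wide 0.0659% of peaks were called lower and 0.588% higher. Because the window was chosen on this contrast, nothing is read from that difference. In 53 window peaks all 3 tamoxifen values lay below all 3 oil values, which held for 10% of all peaks. The 31 peaks made up 26.7% of the 116 peaks called lower genome wide. Without tamoxifen replicate 4, 48 window peaks were called lower, of 766 peaks genome wide (0.435%). Leaving out oil replicate 4 gave 12 calls in the window, leaving out oil replicate 2 gave 18, and leaving out tamoxifen replicate 3 gave 19. In these fits 35, 37 and 53 window peaks had an adjusted p, so fewer than 56 could be called. Fewer cells with an open site and less opening per cell cannot be told apart in these bulk libraries.

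**Figure D1:**
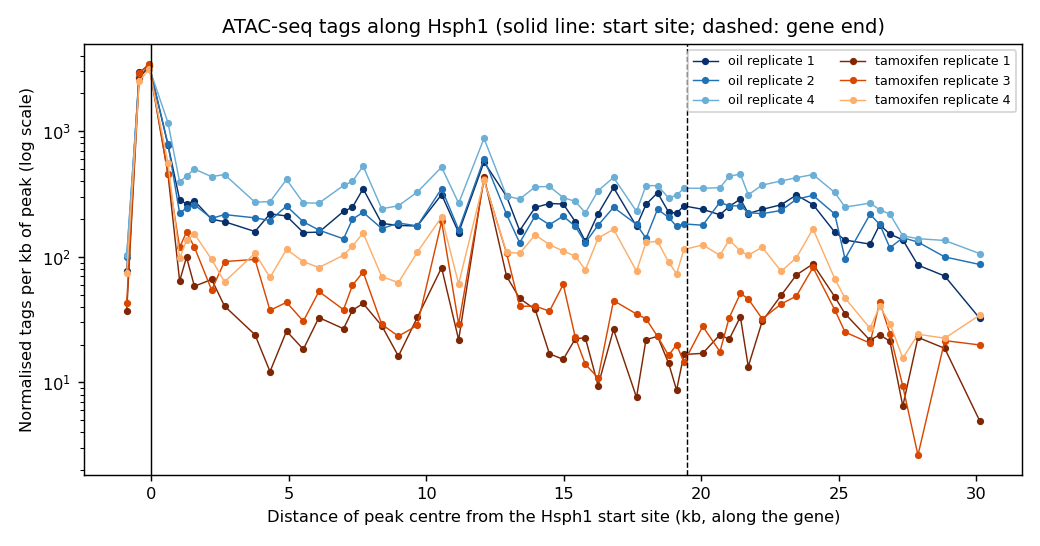
Normalized tags per kb of peak (log scale) in each of the 56 window peaks against the distance of the peak centre from the Hsph1 start site in kb, with 1 line for each of 3 oil (blue) and 3 tamoxifen (brown to orange) libraries. All libraries meet at the promoter, separate within the first kb of the gene and stay apart past the gene end (dashed line). Tamoxifen replicate 4 is the highest of its group at 30 of the 34 body peaks and below all oil libraries at each of them. The intron 11 peak (12103 bp) stands above its neighbors in every library.

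The peak on the Hsph1 start site (chr5:149636298-149636503) held 693, 682 and 661 normalized tags in oil replicates 1, 2 and 4 and 678, 713 and 648 in tamoxifen replicates 1, 3 and 4. The ranges overlapped and the log2 change was 0.0017 ± 0.085 (SE). The adjacent promoter peak (chr5:149636657-149636873) held 639, 592 and 597 tags after oil and 578, 627 and 541 after tamoxifen, again overlapping. At most 3 tags per position had been counted by the authors, which limits how high such peaks can go.

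The outermost peak upstream (chr5:149637108-149637327) was small, with 17.1, 21.9 and 22.8 tags after oil against 8.22, 9.47 and 16.3 after tamoxifen, and its log2 change was -0.90 ± 0.49 (SE). The peak 618 bp into the gene, in intron 1, was the first along the gene in which the groups parted at high tag counts. It held 165, 168 and 249 tags after oil and 96.7, 98.0 and 119 after tamoxifen, so that each tamoxifen library lay below each oil library, although this peak came from the tamoxifen peak list alone. Together the 4 upstream and promoter peaks averaged 1503 ± 34.3 normalized tags after oil. The mean after tamoxifen was 1378 ± 63.6 (both SD, n = 3), a log2 ratio of -0.13, and none (0) was called.

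Across the gene body, from 1 kb past the start site to the gene end, 34 peaks covered 48.4% of the whole 19.5 kb gene. Their summed tags were 2224, 1954 and 3351 in oil replicates 1, 2 and 4 and 382, 564 and 1087 in tamoxifen replicates 1, 3 and 4. Each tamoxifen library lay below each oil library, with oil replicate 4 the highest of its group and tamoxifen replicate 4 the highest of its own. The means were 266 ± 78.6 tags per kb of peak after oil and 71.8 ± 38.8 after tamoxifen (SD, n = 3), a 3.70-fold lower level (log2 ratio -1.89). Against tamoxifen replicates 1 and 3 alone the oil mean was 5.31-fold higher, and against replicate 4 alone it was 2.31-fold higher.

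All 34 body peaks had lower tamoxifen values without overlap between the groups, 17 were called lower with all libraries, and 31 were called lower without tamoxifen replicate 4. Raw tags at single body peaks ran from 31.5 to 220.5 in the oil libraries and from 2 to 94 in the tamoxifen libraries, so that counting error was large at the low end of the tamoxifen values. Log2 changes ran from -0.71 to -2.76 with a median of -2.08, where the median over all peaks was -0.0013. Exonic peaks (7) had a median of -2.27 and intronic peaks (25) of -1.97, and 2 peaks annotated to the untranslated end of the last exon had -2.46 and -2.76.

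The intron 11 peak printed above differed least of the body peaks. It held 120, 127 and 184 tags after oil and 90.9, 86.9 and 85.2 after tamoxifen, a log2 change of -0.71 ± 0.20 (SE). Its tamoxifen libraries were close to each other, and replicate 4 was the lowest of them rather than the highest. The body peak with the lowest log2 change lay 19102 bp into the gene in the last exon (chr5:149617123-149617345). It held 49.6, 39.0 and 69.0 tags after oil against 1.93, 4.46 and 16.3 after tamoxifen, so tamoxifen replicate 4 lay between the groups, and its log2 change was -2.76 ± 0.80 (SE), or -4.08 without that library.

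Peak lists came from the same tags, so a peak in the oil list alone tends to be higher after oil by that choice. The authors had called peaks separately for each group before merging, and 49 of the 56 window peaks came from the oil list alone (87.5%), compared with 17.4% of all peaks. A further 6 were in both lists and 1 in the tamoxifen list alone. The 4 body peaks found in both lists had log2 changes of -0.71 to -1.53, and the 30 from the oil list alone -1.47 to -2.76. Nothing is read from these differences, and most window values rest on peaks that entered through the oil list alone.

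Comparing the body with the promoter inside each library removes any scaling between libraries. Tags per kb of body peak were 7.49%, 6.88% and 11.9% of those at the 2 promoter peaks before or on the start site in oil replicates 1, 2 and 4. They were 1.36%, 1.89% and 4.10% in tamoxifen replicates 1, 3 and 4, and no tamoxifen library reached the lowest oil library. From 5 to 10 kb past the gene end the same share was 4.04%, 4.99% and 7.24% after oil and 0.837%, 0.746% and 1.21% after tamoxifen.

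**Figure D2:**
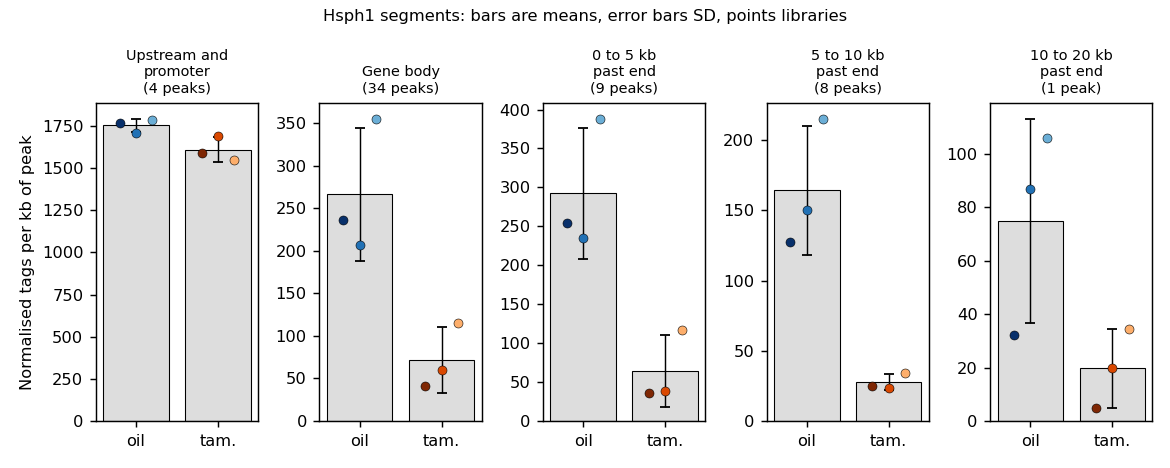
Normalized tags per kb of peak in 5 segments of the Hsph1 window, each panel with its own axis from 0. Grey bars are group means, error bars SD (n = 3) and points the libraries (oil blue, tamoxifen, written tam., brown to orange). Means differ little at the promoter (1755 against 1609) and are 266 against 71.8 in the body and 164 against 27.5 from 5 to 10 kb past the end.

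Beyond the annotated end, 18 more peaks had fewer tags after tamoxifen. RefSeq ends Hsph1 at chr5:149616845, and a longer transcript in GENCODE vM21 reaches 2.56 kb further, so that the first of these peaks may lie within a transcribed part. From 0 to 5 kb past the end 9 peaks held 853, 788 and 1305 tags in oil replicates 1, 2 and 4 and 121, 130 and 393 in tamoxifen replicates 1, 3 and 4. The means were 292 ± 83.8 and 63.9 ± 46.0 tags per kb of peak (SD, n = 3), a log2 ratio of -2.19 that reached -2.97 without tamoxifen replicate 4. Between the groups, replicate 4 of the tamoxifen group was again the closest to oil.

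The widest of these peaks, 561 bp past the end (chr5:149615816-149616752), had the most tags of the segment. It held 224, 167 and 329 tags after oil and 15.9, 26.2 and 116 after tamoxifen, without overlap, and its log2 change was -2.18 ± 0.86 (SE), or -3.52 without tamoxifen replicate 4. The next peak, 1187 bp past the end by its centre, had the lowest log2 change of the segment, -2.51 ± 0.69 (SE), with 48.0, 60.5 and 78.8 tags after oil against 5.32, 3.90 and 22.8 after tamoxifen.

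From 5 to 10 kb past the end 8 peaks held 341, 403 and 578 tags in oil replicates 1, 2 and 4 and 66.7, 63.5 and 91.3 in tamoxifen replicates 1, 3 and 4. Here tamoxifen replicate 4 was close to the other libraries of its group, all 8 peaks were called lower, and the log2 ratio was -2.58, or -2.76 without that library. The peak with the most tags, 5358 bp past the end, held 60.1, 83.9 and 125 tags after oil and 18.4, 14.5 and 25.6 after tamoxifen. The peak with the lowest log2 change of the whole window, 7833 bp past the end and printed above, held 40.8, 42.4 and 43.9 tags after oil and 1.93, 2.79 and 4.66 after tamoxifen. Oil libraries were nearly equal there, unlike at most window peaks, and the log2 change was -3.83 ± 0.59 (SE).

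From 5 kb past the end onward the peaks lay near the end of another gene, Wdr95, which runs on the plus strand toward Hsph1 (chr5:149528679-149611894), and 9 window peaks fell inside it. ATAC-seq tags carry no transcript strand, so that they cannot be assigned to either gene. The other 7 peaks of Wdr95, which the window did not take and which are also the 7 downstream flanking peaks, had summed tags of 705, 680 and 744 after oil and 729, 639 and 744 after tamoxifen. Their ranges overlapped, log2 changes ran from -0.64 to 0.10, and none (0) had an adjusted p under 0.05 or a p under 0.05 (DESeq2, smallest adjusted p 0.77).

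At the downstream edge the last window peak, 10631 bp past the gene end (chr5:149606018-149606410), held 12.7, 34.1 and 41.7 tags after oil and 1.93, 7.80 and 13.5 after tamoxifen. Its groups overlapped by 1 library and it was called lower with all libraries but not without tamoxifen replicate 4. No peak followed for 15.6 kb. The first peak beyond that gap (chr5:149590166-149590437) held 19.3, 22.9 and 23.7 tags after oil and 16.4, 11.7 and 15.4 after tamoxifen. At the upstream edge the first peak outside the window (chr5:149641424-149641678), held 111, 147 and 194 tags after oil and 111, 81.9 and 122 after tamoxifen, and the groups overlapped.

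Within 44 kb on either side of the window lay 24 peaks that the choice of the window did not use, and these were tested. None (0) was called and none (0) had an adjusted p under 0.05 (DESeq2, smallest adjusted p 0.20). At an unadjusted p under 0.05 there were 4, all upstream of Hsph1 and all lower after tamoxifen (16.7% of the flanking peaks, against 2.84% of all peaks lower at that p), and edgeR also called none (0). Log2 changes had a median of -0.24 over the 17 upstream peaks and 0.071 over the 7 downstream peaks. Without tamoxifen replicate 4, 1 upstream peak (chr5:149656644-149657104, named after its values were seen) was called lower, with 66.7, 59.5 and 77.5 tags after oil, 27.1 and 26.7 in tamoxifen replicates 1 and 3 and 61.0 in replicate 4 (log2 change -1.33 ± 0.32, SE, DESeq2 adjusted p 0.0026). That was 4.17% of the flanking peaks, against 0.435% of all peaks called lower in the same fit.

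The libraries of a group also differed in a pattern along the gene. Oil replicate 4 was the highest oil library in 54 of the 56 window peaks, where it was so in 35.0% of all peaks, and tamoxifen replicate 4 was the highest of its group in 49, against 36.3% of all peaks. Summed over bins of 2.5 kb, oil replicate 4 held 1.40 to 1.89 times the mean of replicates 1 and 2 from 1 kb into the gene onward. Tamoxifen replicate 4 held 1.23 times the mean of replicates 1 and 3 from 1 to 3.5 kb and 2.77 times from 3.5 to 6 kb. Its ratio was 1.24 in the bin from 11 to 13.5 kb that holds the intron 11 peak, 4.08 from 13.5 to 16 kb, 5.64 from 18.5 to 21 kb across the gene end, 2.68 from 21 to 23.5 kb and 1.37 from 26 to 28.5 kb. These bins held 2 to 6 peaks each, and the ratios are descriptions of 1 library.

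**Figure D3:**
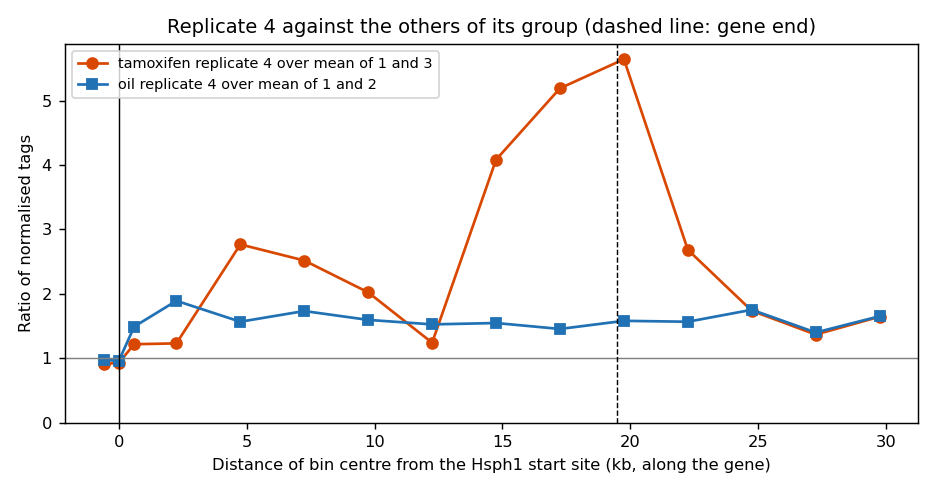
Ratio of summed normalized tags in tamoxifen replicate 4 to the mean of tamoxifen replicates 1 and 3 (orange circles) and in oil replicate 4 to the mean of oil replicates 1 and 2 (blue squares), against the bin centre in kb from the Hsph1 start site. The oil ratio is level near 1.40 to 1.89 along the gene, whereas the tamoxifen ratio reaches 5.64 at the gene end (dashed line) and 1.37 in the bin from 26 to 28.5 kb.

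Set against other genes by the same sums, the Hsph1 body had the lowest log2 ratio of 5227 genes with at least 5 body peaks, whose median was 0.014 and first percentile -0.36. The stretch within 20 kb past its end, with a log2 ratio of -2.29, was the lowest of 7148 genes with at least 5 peaks there. In the share of its length covered by peaks Hsph1 was 127th, at 48.4% against a median of 6.70%. These ranks come from the contrast on which the window was chosen. Next after Hsph1 by body ratio, and named after their values were seen, were Nfkbie (-1.21), which encodes an inhibitor of NF-kB, and 1700001K19Rik (-0.99). Nfkbie lies within 20 kb past the end of Hsp90ab1 and 1700001K19Rik within 20 kb past the end of Hsp90aa1.

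To place Hsph1 among the genes it works with, peaks from 5 kb before the start site to 20 kb past the end were counted for 40 genes of the chaperone machinery. Among them are the 3 other HSP110 genes. Hspa4 and Hspa4l encode the cytosolic relatives of Hsph1 and Hyou1 the one in the endoplasmic reticulum, and of their 26 peaks none (0) was called (DESeq2 and edgeR), none (0) had an adjusted p under 0.05 and 1 had an unadjusted p under 0.05. Median log2 changes were 0.035 for Hspa4 (6 peaks), -0.022 for Hspa4l (5) and 0.049 for Hyou1 (15). Without tamoxifen replicate 4, 1 Hspa4 peak was called lower, with 44.7, 45.3 and 40.3 tags after oil, 15.5 and 20.1 in tamoxifen replicates 1 and 3 and 30.7 in replicate 4 (DESeq2 adjusted p 0.035). That fit called 0.435% of all peaks lower.

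Over the whole list, the HSP110 genes included, 44 of 761 peaks were called lower (5.78%) and none (0) higher, beside the 0.0659% and 0.588% genome wide. The median log2 change of the list was -0.22, against 0.0065 over peaks in the bodies of 21000 genes and -0.021 over peaks within 20 kb past their ends. The list was made with earlier results of these data known, so nothing is read from these differences. Adjusted p values printed below for the smallest of a locus are descriptions for the same reason. With the 31 at Hsph1, the list and the window held 75 of the 116 lower calls, and the other 41 were elsewhere. In the called list peaks oil replicate 4 was the highest of its group in 36 of the 44 and tamoxifen replicate 4 in 35. Without oil replicate 4 the list held 27 calls among 638 peaks with an adjusted p. There were 28 among 675 without tamoxifen replicate 3. Without tamoxifen replicate 4 there were 85 among 761 (84 lower and 1 higher). In that fit 11% of list peaks were called lower, against 0.435% of all peaks (766). No genome-wide count was made for the other left-out libraries, here or at the loci below.

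The neighboring HSP70 genes Hspa1a, Hspa1b and Hspa1l, of which the first pair are the strongly heat-inducible and nearly identical forms, held 25 of the lower calls among 70 peaks. Without tamoxifen replicate 4, in the fit with 766 lower calls genome wide (0.435%), they held 43. Without oil replicate 4 they held 16. The called peaks summed to 3667, 3545 and 4836 tags in oil replicates 1, 2 and 4 and to 824, 968 and 1699 in tamoxifen replicates 1, 3 and 4, without overlap. The log2 ratio was -1.61 for the Hspa1a body and -1.28 for the stretch past the end of Hspa1b, where other genes such as Neu1 also lie. The called peak with the smallest adjusted p lay 11148 bp past the end of Hspa1b (chr17:34945054-34945509). It held 159, 176 and 194 tags after oil and 25.6, 31.2 and 50.3 after tamoxifen, a log2 change of -2.30 ± 0.23 (SE, DESeq2 adjusted p 4.6e-19). Reads within the bodies of the near-identical pair may have been split between them, so that the body value of either gene alone is uncertain.

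Of the HSP90 genes, which encode a chaperone of kinases and steroid receptors, Hsp90aa1 and Hsp90ab1 each had 8 peaks called lower, all past the gene end, among 47 and 49. These counts were also equal without oil replicate 2, at 5 each. Without tamoxifen replicate 4 they were 9 and 13. Over the other left-out libraries Hsp90aa1 had 5 (without oil replicate 2) to 9 calls and Hsp90ab1 had 4 (without tamoxifen replicate 3) or 5. At Hsp90aa1 the called peaks summed to 3200, 3622 and 3766 tags after oil and 1578, 1651 and 1559 after tamoxifen. In these called peaks tamoxifen replicate 4 did not stand apart. Over all 33 peaks past the gene end the tamoxifen sums were 7792, 9642 and 11801, with replicate 4 at 1.35 times the mean of replicates 1 and 3. The oil sums there were 14011, 14373 and 16717. The peak with the smallest adjusted p on the whole list lay 12090 bp past the end of Hsp90aa1 (chr12:110678651-110679242) and held 738, 814 and 892 tags after oil and 349, 392 and 340 after tamoxifen (log2 change -1.18 ± 0.10, SE, DESeq2 adjusted p 9.6e-27). At Hsp90ab1 the called peaks summed to 1586, 1707 and 1958 tags after oil and 622, 506 and 854 after tamoxifen. Promoter sums had log2 ratios of -0.096 and -0.18 for these genes.

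Hspe1, the mitochondrial co-chaperonin that shares a promoter region with Hspd1, had 2 peaks called lower past its end, and Dnaja4, an HSP40 co-chaperone, had 1. The Hspe1 peak with the smaller adjusted p held 83.8, 72.6 and 89.6 tags after oil and 25.6, 20.1 and 52.6 after tamoxifen (log2 change -1.32 ± 0.30, SE, DESeq2 adjusted p 0.0025). The Dnaja4 peak held 41.9, 40.0 and 51.1 tags after oil and 19.3, 12.3 and 21.9 after tamoxifen (DESeq2 adjusted p 0.029). In both, each tamoxifen library lay below each oil library. The calls depended on single libraries. Peaks of Hspd1 and Hspe1 went from 2 calls to 13 without tamoxifen replicate 4, to 1 without oil replicate 1 and to 0 when oil replicate 4 or tamoxifen replicate 1 or 3 was left out. Dnaja4 had 2 calls without tamoxifen replicate 4 and 0 when oil replicate 1 or 4 or tamoxifen replicate 1 or 3 was left out.

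Some listed genes had smaller or opposite values. Dnajb1, the HSP40 gene most closely tied to heat shock and named after its values were seen, had no called peak (0 of 34), although 18 of its peaks were lower at an adjusted p under 0.05 with a fold change under 2, and it had 1 called peak without tamoxifen replicate 4, 2 without tamoxifen replicate 1, 3 without oil replicate 1 and 4 without oil replicate 2. Its log2 ratios were -0.47 in the body and -0.65 past the end. Dnaja1 was also named afterwards, with log2 ratios of 0.33 in the body and -0.39 past the end and no lower peak at an adjusted p under 0.05 (0 of 30). Hspa5, the HSP70 of the endoplasmic reticulum, had log2 ratios of 0.035 and -0.095 in body and past the end, and Hsf1 of 0.066 and -0.054, both named after their values were seen. No peak of Hsf1 or Hsf2 was called (0 of 35).

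**Figure D4:**
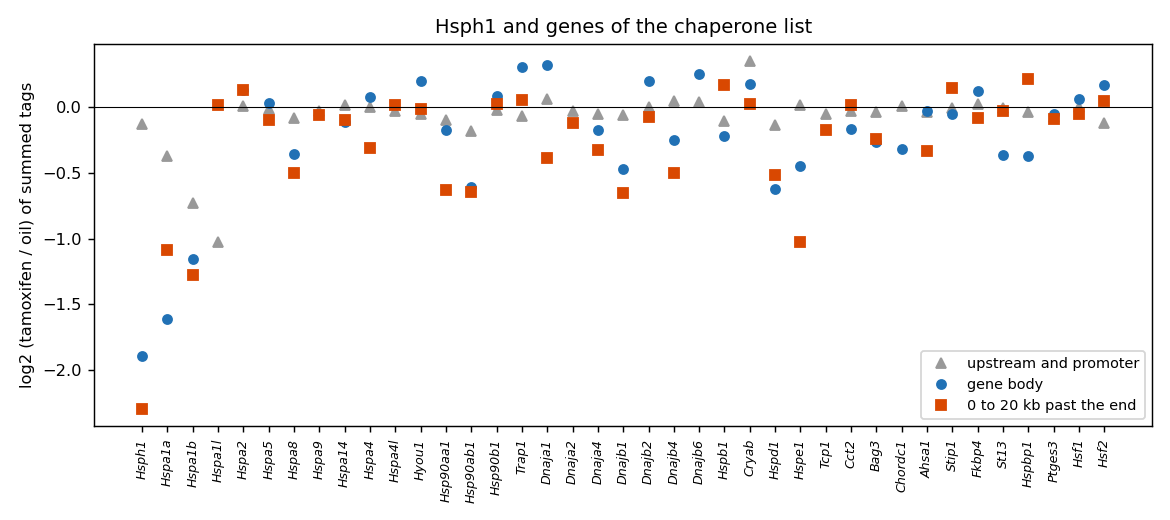
Log2 ratio of tamoxifen to oil in summed normalized tags for Hsph1 and the listed chaperone genes (x axis), shown for the upstream and promoter stretch (grey triangles), the gene body (blue circles) and 0 to 20 kb past the end (orange squares). Hsph1 is lowest in body (-1.89) and past the end (-2.29) and the Hspa1a and Hspa1b values follow. Stretches of neighboring genes overlap, so that the grey value of Hspa1l (-1.02) shares peaks with Hspa1a.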

How the data were processed

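Tag counts over a merged list of ATAC-seq peaks were deposited for 6 libraries, 3 oil and 3 tamoxifen. The authors aligned reads to mm10 with Bowtie2 and called peaks and estimated counts of tags with HOMER (versions not given in the sources used here). These estimated counts came in steps of 0.5, with at most 3 tags per position, and were rounded to whole numbers before testing. The deposited peak score was used only as a description of the peak list.

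DESeq2 1.42.0 (median-of-ratios scaling, Wald test, Benjamini-Hochberg adjustment over all 175929 peaks) compared the groups in R 4.3.3 with no covariate. Calls needed an adjusted p under 0.05 together with a more than 2-fold difference. edgeR 4.0.16 was an alternative. The DESeq2 fit was tested on simulated data. Normalized tags are counts divided by DESeq2 size factors, and segment sums add them over peaks by peak midpoint. Depth of 17.5 to 21.1 M tags in peaks (1 M is 1000000) limits precision most where single peaks held few tags.

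Named in the text are, per segment, the peaks with the highest mean and the lowest log2 change, the peaks at the window's edges, the 3 other HSP110 genes and listed genes with a called peak. Other names are marked. Some of the cell type markers examined are not reported here. The members and lists were chosen with earlier results of these data known. Sequences came from RefSeq GRCm38.p6, whose chromosomes equal those of mm10. Groups shared replicate numbers 1 and 4, and deviations of same-numbered libraries from their group means gave r of -0.0486 and 0.0641, so the numbers were not taken as pairs. Alternatives were scaling, low-tag filters, thresholds, a replicate block and leaving out each library.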

Additional observations from a re-analysis of the deposited data

How the results depend on the processing

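Of the comparisons with a count or a segment value, 112 alternatives stayed close to the reported value and 23 moved it. Close meant within a set ratio for a count and within the spread between libraries for a segment. That spread reached 1.21 in log2 from 10 to 20 kb past the end. Counts were not labelled by direction, so only segment values could have reversed, and none (0) did. The window count entered both as all calls and as lower calls, with equal values. With 31 window peaks called, edgeR called 51. Leaving out single libraries gave 12 (without oil replicate 4) to 48 (without tamoxifen replicate 4). In between lay 18 without oil replicate 2 and 19 without tamoxifen replicate 3. Window peaks with an adjusted p numbered 35 to 56 over these fits. Against 44 of 761 chaperone list peaks called, edgeR called 78, and dropping the fold limit gave 84, of which 82 were lower. Distal peaks alone gave 28 calls, among the 427 list peaks with an adjusted p in that fit. Leaving out single libraries gave 27 (without oil replicate 4) to 85 (without tamoxifen replicate 4), with 28 without tamoxifen replicate 3. List peaks with an adjusted p numbered 612 to 761 over the fits with a library left out. Without tamoxifen replicate 4 the flanks and the HSP110 genes had 1 call each, and without any other library 0. Those other fits gave an adjusted p to 19 or 20 of 24 flanking peaks. For the HSP110 genes it was 18 to 21 of 26 peaks. The log2 change from 0 to 5 kb past the gene end ran from -1.91 to -2.97 over the left-out libraries.

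With a replicate block, which uses the numbers 1 and 4 and drops the unmatched libraries, 11 window peaks and 21 chaperone list peaks were called, and the log2 change of the promoter segment was -0.18. The block rests on 2 shared numbers that do not pair the libraries. Which of fewer libraries, fewer tests or spread lowered the counts was not tested. Low tag counts in the tamoxifen libraries limit the precision of single peaks, and the cap on tags per position limits promoter peaks.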
